A study of Homo sapiens with 24 samples.

Results

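The 49 genes described here are those whose products drive the G2/M transition and mitosis. They encode cyclins and CDK1, mitotic kinases, spindle checkpoint proteins, and factors that act with the anaphase-promoting complex or at anaphase. They also encode kinetochore proteins, spindle motors, cytokinesis factors, condensin and other chromosome proteins, and FOXM1. These genes were taken from a fixed list of names. This list and the other gene lists below were chosen with earlier results of these data known. Each gene was read from the probe set of highest mean over all 24 arrays. All 49 were measured, of 11940 genes with a probe set of a single symbol. The samples were A2780 cells, a human ovarian cancer line, transfected with the empty vector pcDNA or with Rab25, a small GTPase of recycling endosomes. Per the labels, both kinds of cells were kept in "5% RPMI 1640" and starved of serum during 8 h. Starved controls (4 arrays per line) were set beside cells that then received EGF at 10 ng/ml, IGF at 10 ng/ml, TGF beta at 5 ng/ml or fetal bovine serum (FBS) at 5%, with 2 arrays per line and treatment. Each of these 10 groups was split evenly over 2 experiments. The labels conflict on the exposure: the protocol gives 8 h in experiment 1 and 24 h in experiment 2, while the source names give 24 h in both. They do not say how long the starved controls were kept. Each line was a single transfected line, so the transfected gene and anything else that separated the lines cannot be told apart. Exposure and whatever else changed between the experiments cannot be told apart either. No label says that the arrays came from separate cultures beyond calling the samples independent, so p-values measure the spread between these samples.

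Entry into mitosis is driven by CDK1 bound to cyclin B, which is kept off by inhibitory phosphorylation until CDC25 phosphatases remove it, and exit follows when the anaphase-promoting complex with CDC20 marks cyclin B and securin for destruction. Transcripts of most of these genes are low in G0 and G1 and rise through S phase to a peak in G2 and mitosis. In resting cells the DREAM complex (MuvB with p130 and E2F4) holds their promoters down through a CHR element, and in cycling cells MuvB with B-MYB and FOXM1, together with NF-Y at CCAAT boxes, turns them on. In a bulk sample their level follows the share of cells in G2 and mitosis as well as the RNA per cell, and fewer such cells and less RNA per cell cannot be told apart. Serum starvation is used to draw cultured cells towards G0 and G1, and serum to bring them back into the cycle.

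Promoters are shown because members of this set moved together and the elements through which they are known to be controlled can be read in the sequence. RefSeq promoter windows on GRCh38.p14, each of 250 bases before and 50 bases after a transcription start, matched 42 of the 49 members by symbol and gave 54 windows, 8 members having several starts whose windows can overlap. The CHR core was searched as TTTGAA and, as a variant, TTTAAA, and the NF-Y box as CCAAT, all on both strands; the motifs may overlap one another at their ends. TTTGAA was in 62.96% of the members' windows, against 11.74% of the 14136 windows of genes on the array and 15.16% of all 35116 windows. CCAAT was in 74.07% of the members' windows, against 35.21% and 34.61%. A CHR core of either kind together with CCAAT was in 61.11% of members' windows, against 7.739% and 9.269%. TTTGAA lying within the 50 bases before the start was in 33.33% of members' windows, against 1.641% and 2.281%, and 21 of the 44 TTTGAA matches in the members' windows began there. Of the 83 CCAAT matches, 53 began 40 to 120 bases before the start. Matches were counted per window, so a site in overlapping windows of a gene, as in PTTG1, ZWINT and AURKB, counts more than once. The median GC content was 61.83% in the members' windows and 63% in those of array genes. A match is a description of the letters, not a bound site.

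The 4 members with the largest FBS change over both lines that hold both kinds of element, and MELK, the 1 matched member with neither, are printed as the 250 bases before the start, 5′ to 3′. Capitals mark every match on either strand, TTCAAA and ATTGG being motifs read on the other strand. CDKN3, a phosphatase acting on cyclin-dependent kinases, lies at chr14:54396757-54397006 on the plus strand. KIF20A, a kinesin of the central spindle, lies at chr5:138178862-138179111 on the plus strand. CDC20, the activator of the anaphase-promoting complex, lies at chr1:43358731-43358980 on the plus strand. MKI67, the Ki-67 antigen that coats mitotic chromosomes, lies at chr10:128126424-128126673 on the minus strand. MELK, a kinase raised in dividing cells, lies at chr9:36572645-36572894 on the plus strand. The CDKN3, CDC20 and MKI67 promoters hold TTTGAA, and the KIF20A promoter holds the variant TTTAAA.
CDKN3: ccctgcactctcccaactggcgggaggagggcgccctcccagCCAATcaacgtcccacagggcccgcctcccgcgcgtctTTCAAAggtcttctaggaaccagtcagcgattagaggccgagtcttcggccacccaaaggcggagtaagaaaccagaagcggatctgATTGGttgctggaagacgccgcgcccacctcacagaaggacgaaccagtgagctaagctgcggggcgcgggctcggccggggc
KIF20A: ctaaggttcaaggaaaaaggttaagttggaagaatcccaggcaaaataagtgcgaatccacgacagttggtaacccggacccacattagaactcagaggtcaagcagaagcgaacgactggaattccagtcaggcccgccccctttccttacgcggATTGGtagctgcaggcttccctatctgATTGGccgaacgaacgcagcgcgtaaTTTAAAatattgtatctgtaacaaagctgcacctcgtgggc
CDC20: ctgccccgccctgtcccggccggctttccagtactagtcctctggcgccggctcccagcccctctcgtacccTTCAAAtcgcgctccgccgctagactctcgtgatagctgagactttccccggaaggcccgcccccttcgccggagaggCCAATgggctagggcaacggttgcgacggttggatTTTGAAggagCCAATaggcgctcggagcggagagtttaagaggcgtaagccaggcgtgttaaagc
MKI67: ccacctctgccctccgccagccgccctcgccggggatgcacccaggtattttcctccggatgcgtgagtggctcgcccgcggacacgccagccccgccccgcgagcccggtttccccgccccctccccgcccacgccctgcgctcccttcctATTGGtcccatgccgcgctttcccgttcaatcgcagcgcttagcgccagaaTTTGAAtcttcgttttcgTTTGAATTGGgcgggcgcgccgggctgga
MELK: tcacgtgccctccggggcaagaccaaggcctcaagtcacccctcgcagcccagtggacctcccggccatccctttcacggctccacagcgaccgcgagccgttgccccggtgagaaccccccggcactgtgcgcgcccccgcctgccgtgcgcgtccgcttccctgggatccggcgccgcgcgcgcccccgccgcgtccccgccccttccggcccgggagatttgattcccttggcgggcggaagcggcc

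**Figure D1:**
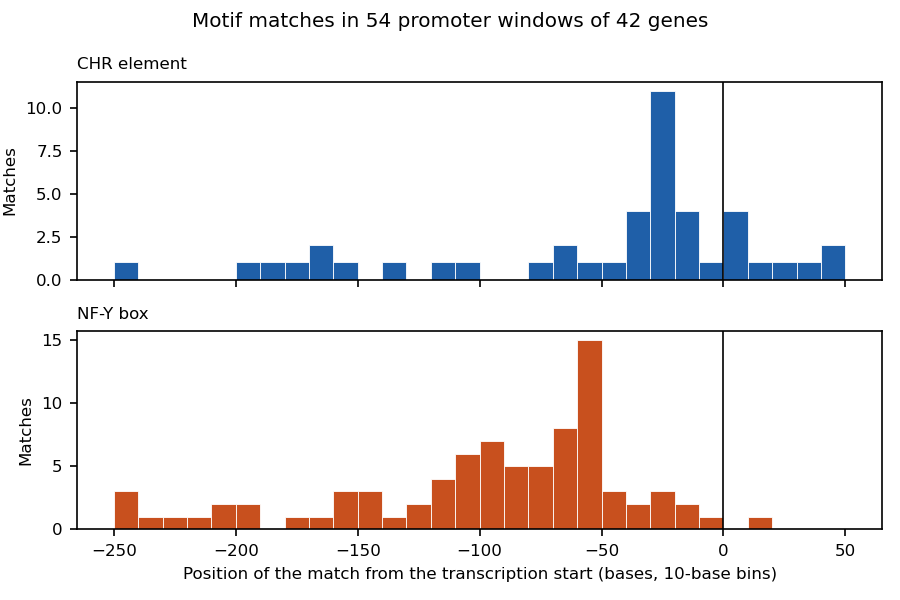
Position of each CHR element (core form, upper panel) and NF-Y box (lower panel) in the 54 promoter windows of 42 members, as the number of matches per 10 bases from the transcription start (0). Both panels show a peak before the start, 21 of 44 CHR matches within 50 bases of it and 53 of 83 NF-Y matches 40 to 120 bases before it. A site in overlapping windows of a gene counts more than once.

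Members with and without a motif had similar median changes. The 30 members with TTTGAA had a median FBS response in pcDNA cells of experiment 1 of 1.01 on the log2 scale (0.25 to 1.63), and the 12 matched members without it 1.03 (0.50 to 1.62). The median difference between the experiments in starved pcDNA cells was 1.09 with TTTGAA and 1.06 without. With CCAAT (34 members) and without it (8 members) the medians of that FBS response were 1.04 and 0.91. BUB1 had no CHR core of either kind in its window and was among the members of largest FBS response.

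Over the 11940 genes the median log2 value of an array was 7.86 to 8.24, lowest on the Rab25 FBS array of experiment 2. RAB25 itself read 5.26 ± 0.25 (SD, n = 12) where the vector was transfected and 8.65 ± 0.30 (SD, n = 12) where Rab25 was, without overlap. Of the lineage markers, PAX8 (11.18 to 12.35), KRT8 (12.49 to 12.95) and KRT18 (13.47 to 14.22) were high on all 24 arrays. MUC16 (4.82 to 5.16), EMX2 (4.89 to 5.13) and CDH1 (at most 5.76) were low, as was EPCAM apart from 1 Rab25 FBS array at 8.49. On both Rab25 FBS arrays 5 of 7 fibroblast markers and 6 of 8 macrophage and blood markers read above all 22 other arrays. The same held for 2 of 6 breast epithelium, 1 of 7 adipocyte and 1 of 6 epithelial markers. It held for 0 of 7 ovarian and Mullerian and 0 of 4 endothelial markers. The share of all genes for which it held was not counted, so these counts alone do not set the 2 arrays apart. Of the blood markers counted CD74 was clearly high on both arrays, at 9.66 and 7.66 against at most 5.97. The others read at most 6.35 on these Rab25 FBS arrays, CD68 for example 5.55 and 5.64 against at most 5.53. The summed linear signal of the fibroblast markers was 8585.2 and 21763.6 there and 3715.7 to 6423.8 elsewhere, and COL3A1 read 12.76 and 11.00 against 5.04 to 6.60. The fibroblast marker DCN was high on all 24 arrays (11.55 to 12.55) and made up most of the sum elsewhere. CDH5, an endothelial marker, was also high on all 24 arrays (9.69 to 11.84). The part of these transcripts in the results for Rab25 cells in FBS was not tested, and the main counts and medians that rest on them are given also without them where such a value exists. RNA quality was read from actin and GAPDH. The 3' probe set of actin exceeded its 5' one by 0.63 to 1.17 (log2). The median was 0.95 in pcDNA cells of experiment 1 and 0.71 to 0.82 in the other 3 combinations of line and experiment. For GAPDH the same difference was 0.19 to 0.43, with medians of 0.24 in pcDNA cells of experiment 1 and 0.27 to 0.30 in the other 3 combinations. The part of RNA quality in the results was not tested.

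Among the members, mean levels over the 24 arrays ran from 8.96 for CDC25C to 13.13 for PTTG1 (securin), and a member's own range over the arrays from 0.67 for CKS1B to 2.17 for DLGAP5, with a median of 1.47. Levels of different probe sets are not compared further. Of the 49 members 30 had 1 probe set and 19 had several, with 31 other sets. Of these 31, 27 had a positive FBS difference in experiment 1 and 28 were higher in experiment 2 in starved cells. BUB1 had 1 further set that gave 1.69 with FBS in experiment 1, beside 1.46 for the set used, and 3 dim sets near 0 (-0.079 to -0.0032). FOXM1 had a second set that went the other way, -0.33 beside 0.71, and the dimmest set of CDC25C gave 0.071 beside 0.60. For Rab25 minus pcDNA in experiment 1 without FBS, the second FOXM1 set gave -0.64, beside 0.062 for the set used. The dimmest set of SMC4 gave -0.47 beside 0.11 and that of CDC25C -0.11 beside 0.44, while all remaining other sets were positive. When a gene's sets were replaced by their median, FOXM1 and CDC25C lost some calls, and BUB1 nearly all, with 5 of its differences turning sign at values near 0, so the values of these 3 genes below hold for the brightest probe set.

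Each array is first described by the median over the 49 members of the deviation from each gene's own mean over 24 arrays (log2). In pcDNA cells of experiment 1 this deviation was -0.69 and -0.54 in the starved duplicates, -0.73 with EGF, -0.76 with IGF and -0.59 with TGF beta, but 0.42 with FBS. In Rab25 cells of experiment 1 it was -0.20 and -0.17 in starved cells, -0.18 with EGF, -0.21 with IGF, -0.053 with TGF beta and 0.41 with FBS. In experiment 2 the pcDNA arrays lay higher than in experiment 1 except with FBS, at 0.46 and 0.48 starved, 0.44 with EGF, 0.38 with IGF, 0.36 with TGF beta and 0.28 with FBS. The Rab25 arrays of experiment 2 lay at 0.23 and 0.20 starved, 0.12 with EGF, 0.11 with IGF, 0.15 with TGF beta and 0.069 with FBS. The same deviation over all 11940 genes stayed between -0.082 and 0.016. Levels were thus lowest in pcDNA cells of experiment 1 without FBS, where 0 of 49 members were above their own mean on all 5 arrays, and highest in pcDNA cells of experiment 2 and in both lines with FBS in experiment 1. Starved duplicates of a line and experiment differed by a median absolute value of 0.058 to 0.13 over the members, and at most by 0.58, for KIF14 in Rab25 cells of experiment 2.

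**Figure D2:**
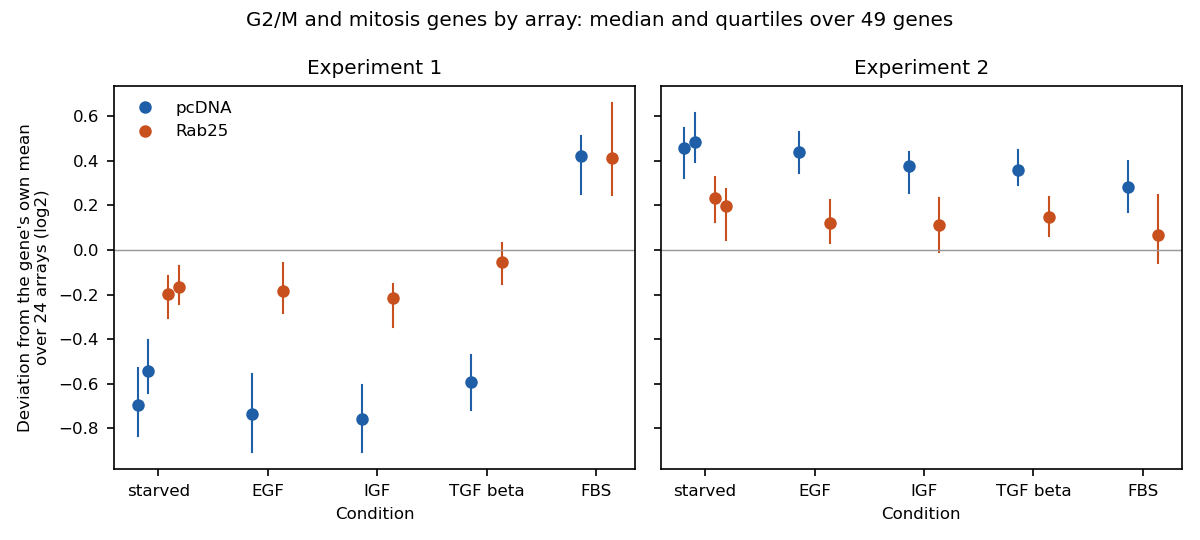
Median (point) and quartiles (line) over the 49 members of the log2 deviation from each gene's mean over 24 arrays, 1 point per array, with condition on the horizontal axis, pcDNA in blue and Rab25 in orange. In experiment 1 the FBS arrays (0.42 and 0.41) stand above all others and Rab25 lies above pcDNA elsewhere, whereas in experiment 2 pcDNA lies above Rab25 and FBS does not stand out.

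In starved cells the members were higher in experiment 2 than in experiment 1. Over both lines 46 of 49 rose and 0 fell (limma, treatment by experiment terms, adjusted p under 0.05), with a median of 0.72. Of all genes 31.3% were called, 14.8% higher, with a median of 0.0066. CDC25B, CKS1B and KIF14 were not called. With a line by experiment term, which was added after the data were seen, 49 of 49 members rose in pcDNA cells, where 32.6% of all genes were called and 15.5% were higher. Their median was 1.09, with a range from 0.35 for ESPL1 to 1.59 for KIF11. In Rab25 cells 40 rose and 1 fell (27.2% of all genes called, 13% higher and 14.2% lower), with a median of 0.37. Over the 5 arrays without FBS of each experiment, no pcDNA array of experiment 2 overlapped those of experiment 1 for any of the 49 members, against 14.4% of all genes. In Rab25 cells this held for 34 members, against 11.4% of all genes.

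The 4 largest rises over both lines were those of a spindle motor, a central spindle motor, the Ki-67 antigen and a kinetochore subunit. KIF11, the kinesin that pushes the spindle poles apart, read 9.16 and 9.34 on the starved pcDNA arrays of experiment 1 and 10.85 and 10.90 on those of experiment 2. In Rab25 cells it read 9.72 and 9.78 and then 10.66 and 10.40. The experiments did not overlap in either line, and KIF11 rose by 1.59 (SE 0.12, limma adjusted p = 2.03e-06) in pcDNA and 0.82 (SE 0.12, limma adjusted p = 0.000371) in Rab25 cells. KIF23, a kinesin of centralspindlin needed for cytokinesis, read 9.68 and 9.89 and then 11.33 and 11.36 in pcDNA cells, and 9.99 and 10.17 and then 10.86 and 10.66 in Rab25 cells. It rose by 1.53 (SE 0.11, limma adjusted p = 1.81e-06) and 0.71 (SE 0.11, limma adjusted p = 0.000695). MKI67 read 10.15 and 10.27 and then 11.54 and 11.70 in pcDNA cells, and 10.82 and 10.90 and then 11.63 and 11.45 in Rab25 cells. Its starved pcDNA arrays of experiment 1 were thus the lowest of the 8, and the rises were 1.42 (SE 0.12, limma adjusted p = 3.64e-06) and 0.66 (SE 0.12, limma adjusted p = 0.00141). NDC80, which binds kinetochores to microtubules, read 10.25 and 10.37 and then 11.61 and 11.73 in pcDNA and 10.73 and 10.86 and then 11.44 and 11.39 in Rab25 cells. In Rab25 cells BIRC5 (survivin, of the chromosomal passenger complex) was the fourth largest rise, from 10.70 and 10.63 to 11.20 and 11.32. The 1 member that fell there was CDC25B, a phosphatase that switches CDK1 on, from 10.76 and 10.68 to 10.49 and 10.53, -0.20 (SE 0.065, limma adjusted p = 0.0434). Quantile normalization, centring on array medians, and leaving out any of 19 arrays each ended that call.

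Every role took part in pcDNA cells. The 5 chromosome structure genes had the largest median rise, 1.22 (0.81 to 1.42), followed by the 7 centromere and kinetochore genes with 1.15 (1.00 to 1.38), the 11 spindle motors and microtubule factors with 1.11 (0.98 to 1.59), the 4 spindle checkpoint genes with 1.10 (1.01 to 1.19), and FOXM1 with 1.03. The 9 genes of the cyclin and CDK core rose by a median of 1.01 (0.49 to 1.19), the 3 cytokinesis genes by 0.99 and the 5 mitotic kinases by 0.95. The 4 genes that act with the anaphase-promoting complex or at anaphase rose least, by a median of 0.78. Of them UBE2C, the ubiquitin-conjugating enzyme that works with the complex, was at 1.14 and ESPL1, the protease separase, at 0.35. In Rab25 cells the medians by role ran from 0.28 for the mitotic kinases to 0.52 for chromosome structure, and PLK1, NEK2, TTK, CENPE, KIF14, ESPL1, CKS1B and CDC25C were not called.

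**Figure D3:**
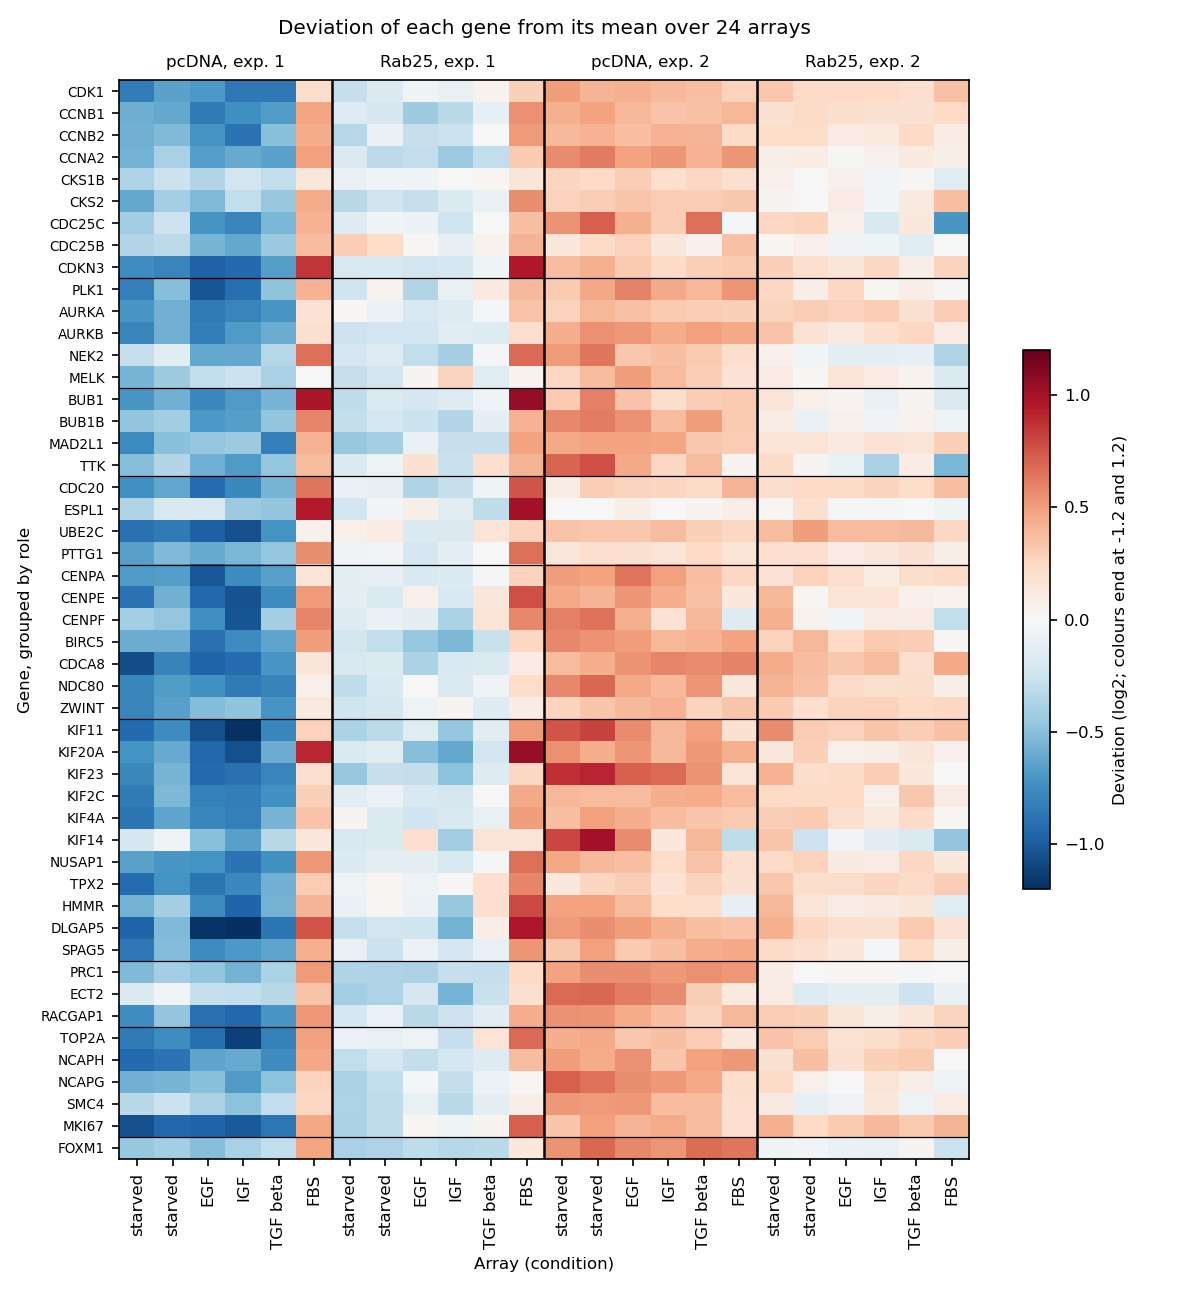
Log2 deviation of each of the 49 members (vertical axis, grouped by role) from its own mean over the 24 arrays (horizontal axis, by line, experiment and condition), red above and blue below. The block of pcDNA arrays of experiment 1 without FBS is blue for every member, while the FBS arrays of experiment 1 and the pcDNA arrays of experiment 2 are mostly red.

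The lines differed in opposite directions in the 2 experiments. With the added line by experiment term, 44 of 49 members were higher in Rab25 than in pcDNA cells of experiment 1 and 0 lower, with a median of 0.41 (28.3% of all genes called, 11.7% higher). In experiment 2, 31 were lower and 0 higher, with a median of -0.24 (26.2% of all genes called, 16.6% lower). The difference between the experiments, tested as its own term, was negative for all 49 members and called for 48 (4.66% of all genes called, 3.39% lower). Its median was -0.69, against -0.0048 over all genes. ESPL1 was the 1 not called, at -0.19 (SE 0.078, limma adjusted p = 0.234). Over the 5 arrays without FBS, Rab25 lay wholly above pcDNA for 35 members in experiment 1 (5.71% of all genes), and in experiment 2 wholly below it for 27 (9.05%) and above it for 0 (7.63%). With arrays centred on their medians the 31 of experiment 2 became 18. With the median of probe sets 42 were higher and 1 lower in experiment 1, and 29 lower in experiment 2. Without both Rab25 FBS arrays the counts were 46 higher, 35 lower and 48, and leaving out each array in turn left 37 to 45, 20 to 41 and 45 to 48. The 20 came from leaving out the EGF array of experiment 2 of either line. From the 8 starved arrays alone the difference was negative for all 49 members, 48 of them at an unadjusted p under 0.05. It was called for 3 of them, and for 13 genes in all.

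Values of a line in an experiment are listed below in the order first starved, second starved, EGF, IGF, TGF beta and FBS. In experiment 1 the largest differences were those of UBE2C, MKI67, TOP2A and CENPE. UBE2C read 11.79, 11.84, 11.71, 11.63, 11.97 and 12.74 in pcDNA cells and 12.75, 12.79, 12.52, 12.52, 12.85 and 12.97 in Rab25 cells. All Rab25 arrays but the FBS array lay above all pcDNA arrays but the FBS array, and the difference was 0.76 (SE 0.059, limma adjusted p = 2.89e-06). MKI67 read 10.15, 10.27, 10.25, 10.20, 10.34 and 11.67 in pcDNA cells and 10.82, 10.90, 11.23, 11.16, 11.24 and 11.92 in Rab25 cells, a difference of 0.74 (SE 0.086, limma adjusted p = 5.52e-05). TOP2A, the topoisomerase that untangles sister chromatids, read 11.32, 11.43, 11.27, 11.05, 11.37 and 12.67 in pcDNA cells and 12.11, 12.08, 12.12, 11.90, 12.34 and 12.86 in Rab25 cells. It differed by 0.72 (SE 0.081, limma adjusted p = 4.43e-05). CENPE, a kinesin that carries chromosomes to the spindle equator, read 8.95, 9.26, 8.90, 8.80, 9.09 and 10.35 in pcDNA cells and 9.73, 9.68, 9.90, 9.66, 9.98 and 10.62 in Rab25 cells, a difference of 0.71 (SE 0.10, limma adjusted p = 0.000173). In each of these 4 genes the lines did not overlap on the first 5 arrays and lay closer with FBS.

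In experiment 2 the largest falls were those of FOXM1, ECT2, TTK and PRC1. FOXM1, the transcription factor that switches on many of the other members, read 11.08, 11.24, 11.13, 11.08, 11.22 and 11.19 in pcDNA cells and 10.50, 10.52, 10.47, 10.46, 10.58 and 10.29 in Rab25 cells. The lines did not overlap, and the log2 difference of Rab25 from pcDNA was -0.70 (SE 0.042, limma adjusted p = 4.15e-07). In experiment 1 its difference was -0.015 (SE 0.042, limma adjusted p = 0.834). The second, dimmer FOXM1 set gave -0.64 there over the arrays without FBS, so equal levels in experiment 1 hold for the brightest set only. ECT2, the exchange factor that activates RhoA for cytokinesis, read 12.35, 12.35, 12.28, 12.23, 11.96 and 11.78 in pcDNA cells and 11.76, 11.51, 11.55, 11.55, 11.42 and 11.58 in Rab25 cells, a difference of -0.57 (SE 0.067, limma adjusted p = 5.97e-05). In experiment 1 ECT2 had the lowest difference of the 49 members, -0.11 (SE 0.067, limma adjusted p = 0.243). TTK, the kinase that starts the spindle checkpoint, read 11.11, 11.19, 10.87, 10.67, 10.79 and 10.45 in pcDNA cells and 10.64, 10.44, 10.33, 10.02, 10.50 and 9.86 in Rab25 cells. Each line's FBS array was its lowest, and the difference over the 5 conditions was -0.53 (SE 0.063, limma adjusted p = 6.41e-05). PRC1, which bundles microtubules of the central spindle, read 12.20, 12.28, 12.28, 12.24, 12.27 and 12.24 in pcDNA cells and 11.81, 11.72, 11.74, 11.75, 11.71 and 11.72 in Rab25 cells, and differed by -0.52 (SE 0.051, limma adjusted p = 1.67e-05).

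The change of the line difference between experiments was largest for TTK, at -0.97 (SE 0.088, limma adjusted p = 0.000313), whose experiment 1 arrays read 9.90, 10.06, 9.84, 9.73, 9.94 and 10.79 in pcDNA cells and 10.25, 10.35, 10.60, 10.14, 10.62 and 10.82 in Rab25 cells. CENPE followed with -0.95 (SE 0.13, limma adjusted p = 0.00196), its experiment 2 arrays reading 10.30, 10.25, 10.37, 10.28, 10.19 and 9.97 in pcDNA cells and 10.23, 9.86, 10.01, 10.01, 9.90 and 9.88 in Rab25 cells. The lines thus overlapped in experiment 2. PLK1, the kinase that acts from mitotic entry to cytokinesis, read 9.40, 9.71, 9.19, 9.32, 9.74 and 10.63 in pcDNA cells and 9.98, 10.27, 9.87, 10.14, 10.34 and 10.61 in Rab25 cells in experiment 1. In experiment 2 it read 10.54, 10.68, 10.82, 10.67, 10.62 and 10.75 in pcDNA cells and 10.47, 10.30, 10.47, 10.25, 10.30 and 10.24 in Rab25 cells, and the change was -0.88 (SE 0.11, limma adjusted p = 0.00137). CDC25C, the phosphatase that activates CDK1 at mitotic entry, read 8.55, 8.71, 8.25, 8.17, 8.41 and 9.38 in pcDNA cells and 8.81, 8.91, 8.89, 8.73, 8.97 and 9.32 in Rab25 cells in experiment 1. In experiment 2 it read 9.50, 9.68, 9.39, 9.26, 9.62 and 8.94 in pcDNA cells and 9.21, 9.23, 9.02, 8.77, 9.08 and 8.27 in Rab25 cells, with a change of -0.82 (SE 0.089, limma adjusted p = 0.000832). By role, the median change ran from -0.46 for the anaphase genes to -0.75 for the spindle motors and microtubule factors. In experiment 1 the cytokinesis genes had the lowest median after FOXM1, 0.063, with 1 of 3 called, and in experiment 2 the anaphase genes (median -0.016) were the role in which 0 of 4 members were called.

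**Figure D4:**
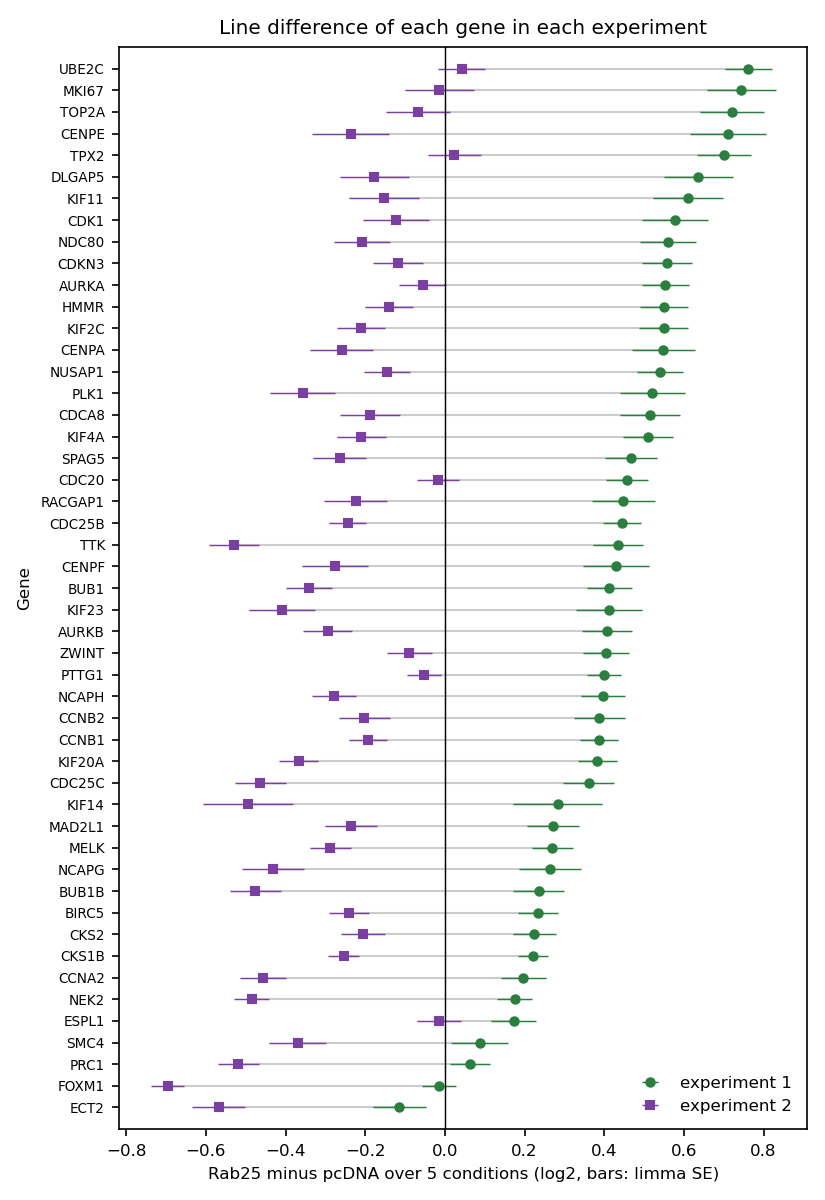
Rab25 minus pcDNA over the 5 conditions (horizontal axis, log2, bars are limma's SE) for each member (vertical axis), circles for experiment 1 and squares for experiment 2. The circles lie at a median of 0.41 and the squares at -0.24, and for all 49 members the square is to the left of the circle.

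The line difference within single conditions had the same order in the median. In experiment 1 it was 0.47 in starved cells, 0.57 with EGF, 0.52 with IGF and 0.54 with TGF beta, but 0.067 with FBS. In experiment 2 it was -0.23 starved, -0.30 with EGF, -0.25 with IGF, -0.20 with TGF beta and -0.15 with FBS. With FBS in experiment 2 the median over all genes was itself -0.098, on the Rab25 array of lowest overall level, and in the other 4 conditions of that experiment it was -0.017 to 0.0035. Starved cells alone, fitted over the 20 combinations of line, treatment and experiment, gave 33 members higher in Rab25 cells of experiment 1 (21% of all genes called, 8.11% higher). The largest difference was that of UBE2C, 0.95 (SE 0.072, limma adjusted p = 0.000179). In experiment 2, 14 were lower (13.5% of all genes called, 7.91% lower), with the largest difference in KIF14, -0.86 (SE 0.17, limma adjusted p = 0.0135). Without the first starved pcDNA array of experiment 1 the 33 became 20, and without either starved pcDNA array of experiment 2 the 14 became 8. Pooled over both experiments, as first planned, the lines differed for 4 members, against 24.7% of all genes (9.14% higher, 15.5% lower). UBE2C, 0.40 (SE 0.13, limma adjusted p = 0.0264), and TPX2, a spindle assembly factor that activates Aurora A, 0.36 (SE 0.13, limma adjusted p = 0.0454), were higher in Rab25 cells. FOXM1, -0.36 (SE 0.12, limma adjusted p = 0.0351), and ECT2, -0.34 (SE 0.11, limma adjusted p = 0.0264), were lower. TPX2 read 11.85, 12.05, 11.90, 11.99, 12.19 and 13.07 in pcDNA cells and 12.72, 12.79, 12.70, 12.78, 12.97 and 13.36 in Rab25 cells in experiment 1, and 12.90, 13.03, 13.07, 12.95, 13.04 and 12.95 in pcDNA cells and 13.09, 12.98, 12.99, 13.02, 13.00 and 13.07 in Rab25 cells in experiment 2. The lines of TPX2 overlapped in experiment 2. Without both Rab25 FBS arrays 3 were called. Without the experiment as a block 0 of 4 calls were left, and with array quality weights 1. Leaving out single arrays left 1 (without the Rab25 EGF array of experiment 2) to 7 (without the Rab25 FBS array of experiment 2). In starved cells pooled over experiments 0 members were called (limma, 2 at an unadjusted p under 0.05; 14.8% of all genes called). The lowest p were those of ECT2, -0.50 (SE 0.18, limma adjusted p = 0.0703), and UBE2C, 0.53 (SE 0.21, limma adjusted p = 0.102).

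FBS raised the members in experiment 1. Over both lines 38 of 49 rose and 0 fell against starved cells (34.1% of all genes called, 17% higher). Their median was 0.84, against -0.017 over all genes. The 3'-5' difference of actin moved with this comparison: it was 0.74 on the pcDNA FBS array of experiment 1 and 0.87 to 1.17 on the other 5 pcDNA arrays, and 0.72 and 0.76 to 1.07 in Rab25 cells. The same difference of GAPDH did not move so. It was 0.24 on the pcDNA FBS array of experiment 1, within the 0.19 to 0.32 of the other pcDNA arrays there. On the Rab25 FBS array it was 0.30, within the 0.24 to 0.43 of the other Rab25 arrays. The part of RNA quality in the FBS response was not tested. Both FBS arrays of experiment 1 lay above all 10 other arrays of that experiment for 46 of 49 members, against 13.7% of all genes; the exceptions were KIF14, UBE2C and MELK. A fit by line was added after the data were seen, in which the single FBS array of a line and experiment is assumed to vary like the starved duplicates. In it 48 members rose in pcDNA cells (29.6% of all genes called, 13.2% higher), with a median of 1.00. In Rab25 cells 42 rose (24.9% called, 14% higher), with a median of 0.60. KIF14 was the 1 not called in pcDNA cells. The pcDNA values do not use the Rab25 FBS arrays. In the fit over both lines, the 38 calls became 9 without the Rab25 FBS array of experiment 1 and 20 without the pcDNA FBS array of experiment 1. Without both Rab25 FBS arrays that fit could compare pcDNA cells only. It then called 21, with a single shift between experiments shared by the lines, where the fit by line called 48.

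BUB1, CDKN3, KIF20A and DLGAP5 had the 4 largest rises in each line. BUB1, the checkpoint kinase that marks centromeres, read 9.45 and 9.57 on the starved pcDNA arrays of experiment 1 and 11.13 with FBS. In Rab25 cells it read 9.84 and 9.97 and then 11.20. Both FBS arrays thus exceeded every starved array, and the rises were 1.62 (SE 0.13, limma adjusted p = 8.92e-05) and 1.30 (SE 0.13, limma adjusted p = 0.000369). CDKN3 read 10.28 and 10.24 and then 11.89 in pcDNA cells, and 10.84 and 10.84 and then 11.99 in Rab25 cells. It rose by 1.63 (SE 0.084, limma adjusted p = 1.2e-05), 3.09-fold, and 1.15 (SE 0.084, limma adjusted p = 7.34e-05), 2.23-fold. KIF20A read 10.06 and 10.16 and then 11.68 in pcDNA cells, and 10.59 and 10.65 and then 11.82 in Rab25 cells. Its rises were 1.57 (SE 0.10, limma adjusted p = 4.1e-05) and 1.19 (SE 0.10, limma adjusted p = 0.000159). DLGAP5, which stabilises the microtubule bundles that hold kinetochores, read 10.13 and 10.56 and then 11.84 in pcDNA cells, and 10.82 and 10.86 and then 12.06 in Rab25 cells. It had the widest range of the 49 members over the 24 arrays, 9.89 to 12.06, and rose by 1.50 (SE 0.16, limma adjusted p = 0.000317) and 1.22 (SE 0.16, limma adjusted p = 0.00125).

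By role, the median FBS response of pcDNA cells in experiment 1 ran from 0.87 for the mitotic kinases to 1.29 for chromosome structure, with all genes called in every role but the spindle motors (10 of 11). In Rab25 cells it ran from 0.44 for the mitotic kinases to 0.79 for the spindle checkpoint; CDC25B, CDCA8, CKS1B, KIF14, MELK, PLK1 and UBE2C were not called. The difference between the lines in this response (Rab25 minus pcDNA) had a median of -0.39, and 28 differed at an unadjusted p under 0.05, but 3 were called (2.6% of all genes called, 0.611% lower). They were UBE2C, -0.72 (SE 0.12, limma adjusted p = 0.0253), NCAPH, a condensin subunit, -0.75 (SE 0.14, limma adjusted p = 0.0366), and CDCA8 (borealin, of the chromosomal passenger complex), -0.80 (SE 0.16, limma adjusted p = 0.0473). UBE2C rose from 11.79 and 11.84 to 12.74 in pcDNA cells and read 12.75 and 12.79 and then 12.97 in Rab25 cells, so the lines lay closer with FBS. NCAPH read 8.23 and 8.27 and then 9.62 in pcDNA cells, and 8.86 and 8.94 and then 9.53 in Rab25 cells. CDCA8 read 9.02 and 9.29 and then 10.23 in pcDNA cells, and 9.90 and 9.92 and then 10.19 in Rab25 cells. All 3 calls rest on the Rab25 FBS array of experiment 1 and cannot be had without it. Leaving out either starved array of experiment 1 of either line, or either starved pcDNA array of experiment 2, left 0 or 1. Quantile normalization gave 7 calls, centring 5, and leaving out the lowest 40% of genes 6. In experiment 2 the response differed between the lines for 0 members (limma, 6 at an unadjusted p under 0.05; 0.343% of all genes called).

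In experiment 2 no member was called with FBS over both lines. The count was 0 of 49 (limma, 5 at an unadjusted p under 0.05; 8.25% of all genes called), with a median of -0.11 and 43 negative differences. The median was 0.0018 with arrays centred on their medians (24 negative), so it had no settled sign. Without both Rab25 FBS arrays that fit compares pcDNA cells only, with a single shift between experiments shared by the lines. Its median was then 0.045 (22 negative), where the fit by line gave -0.14 (39 negative) in pcDNA cells. Over both lines and all arrays the lowest p were those of KIF14, -0.86 (SE 0.28, limma adjusted p = 0.0805), and CDC25C, -0.80 (SE 0.26, limma adjusted p = 0.0812). CDC20 was the 1 member whose 2 FBS arrays lay above all 10 others, which is no more than the share over all genes (2.19%). By line, 10 members fell in pcDNA cells (4.11% of all genes called, 2.31% lower) and 2 in Rab25 cells (10.7% called, 8.27% lower). KIF14, a kinesin of late mitosis, fell most, from 11.12 and 11.32 to 10.00 in pcDNA cells, -1.21 (SE 0.21, limma adjusted p = 0.02), and read 10.64 and 10.06 and then 9.84 in Rab25 cells. CENPF, a kinetochore protein, fell in pcDNA cells from 12.30 and 12.35 to 11.55, -0.78 (SE 0.14, limma adjusted p = 0.025). KIF23 fell from 11.33 and 11.36 to 10.60, -0.75 (SE 0.13, limma adjusted p = 0.0214). TTK and CDC25C fell in both lines. TTK went from 11.11 and 11.19 to 10.45 in pcDNA cells and from 10.64 and 10.44 to 9.86 in Rab25 cells, with log2 differences of -0.70 (SE 0.12, limma adjusted p = 0.0189) and -0.68 (SE 0.12, limma adjusted p = 0.0116). CDC25C went from 9.50 and 9.68 to 8.94 and from 9.21 and 9.23 to 8.27, -0.65 (SE 0.11, limma adjusted p = 0.02) and -0.95 (SE 0.11, limma adjusted p = 0.00204). Without either starved pcDNA array of experiment 2 the 10 calls in pcDNA cells became 0, without a starved array of experiment 1 they became 5 (pcDNA) or 6 (Rab25), and without the second starved Rab25 array of experiment 2 the 2 calls in Rab25 cells became 5. With arrays centred on their medians Rab25 cells had 2 members higher and 2 lower, and the members' median turned from -0.13 to 0.10; without the lowest 40% of genes 1 was higher and 6 lower. When a gene's probe sets were replaced by their median, the 10 calls in pcDNA cells became 6.

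The FBS response is a difference from starved cells, which were themselves higher in experiment 2. In pcDNA cells the members' median deviation went from -0.69 and -0.54 to 0.46 and 0.48 starved, and from 0.42 to 0.28 with FBS. In Rab25 cells it went from -0.20 and -0.17 to 0.23 and 0.20 starved, and from 0.41 to 0.069 with FBS. The response so measured differed between the experiments. As a term of the planned fit over both lines, the difference (experiment 2 minus 1) was negative for 49 of 49 members and called for 28 (22.5% of all genes called, 12.9% lower), with a median of -0.99. The largest were BUB1, -1.66 (SE 0.34, limma adjusted p = 0.00357), DLGAP5, -1.54 (SE 0.38, limma adjusted p = 0.0115), CENPF, -1.51 (SE 0.34, limma adjusted p = 0.00659), and KIF20A, -1.49 (SE 0.33, limma adjusted p = 0.00602). With FBS in experiment 2, BUB1 read 10.47 in pcDNA and 9.98 in Rab25 cells against 10.46 and 10.75 and 10.31 and 10.21 starved. CENPF in experiment 1 read 11.29 and 11.23 starved and 12.29 with FBS in pcDNA cells, and 11.54 and 11.62 and then 12.27 in Rab25 cells. Of its 4 FBS arrays, both of experiment 1 lay above both of experiment 2. In the fit by line the difference was called for 49 members in pcDNA cells (17.4% of all genes called, 7.58% lower), with a median of -1.17. In Rab25 cells it was called for 37 (16.2% called, 12.1% lower), with a median of -0.78. With arrays centred on their medians the 37 became 23. The 28 calls over both lines became 1 without either or both Rab25 FBS arrays, where the term can draw on the pcDNA FBS arrays only. They became 14 without either pcDNA FBS array, while the 49 calls in pcDNA cells were 45 to 49 when any 1 other array was left out.

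**Figure D5:**
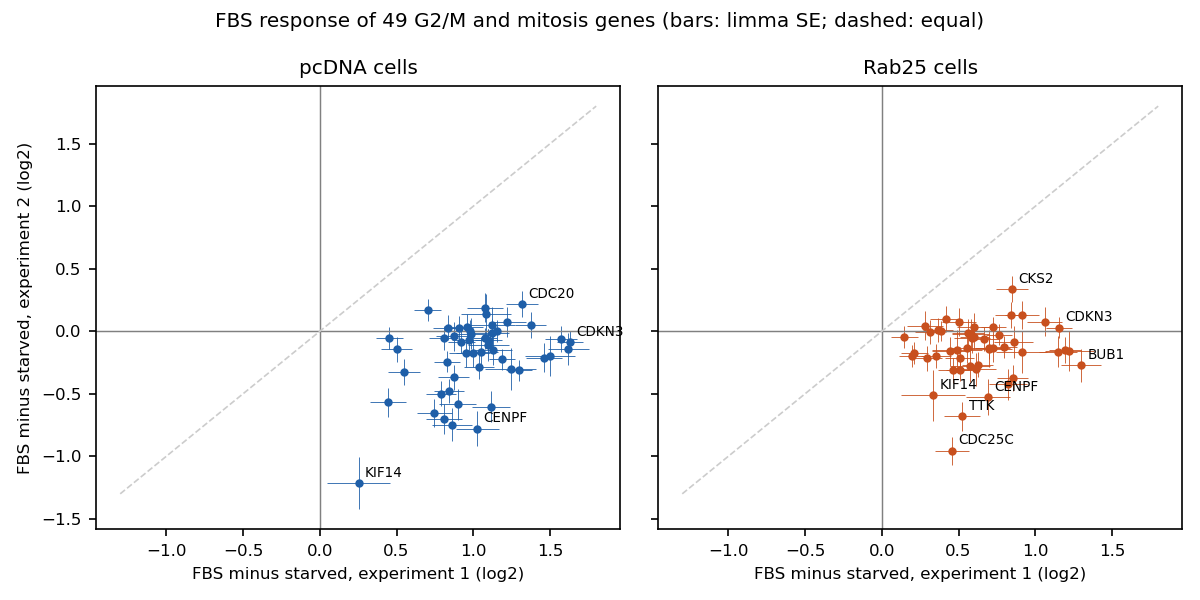
FBS minus starved (log2, bars are limma's SE) of each of the 49 members in experiment 1 (horizontal axis) and experiment 2 (vertical axis), for pcDNA (left) and Rab25 cells (right), with the line of equal response dashed. All points lie below the dashed line, with medians of 1.00 and 0.60 in experiment 1 and of -0.14 and -0.13 in experiment 2.

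Pooled over experiments, as first planned, 46 of 49 members had a positive difference with FBS over both lines. The 3 called higher are no more than the share over all genes would give (17.2% of all genes called, 6.43% higher). They were CKS2, a small subunit of cyclin-dependent kinase complexes, with 0.54 (SE 0.14, limma adjusted p = 0.0118), CDC20 with 0.63 (SE 0.18, limma adjusted p = 0.0221) and ESPL1 with 0.57 (SE 0.18, limma adjusted p = 0.0419). CKS2 read 12.29, 12.50, 12.38, 12.61, 12.46 and 13.35 in pcDNA cells of experiment 1 and 12.57, 12.66, 12.64, 12.74, 12.83 and 13.46 in Rab25 cells. In experiment 2 it read 13.18, 13.21, 13.24, 13.22, 13.20 and 13.23 in pcDNA cells and 12.95, 12.91, 13.00, 12.87, 13.01 and 13.27 in Rab25 cells. CDC20 read 11.30, 11.40, 11.10, 11.25, 11.47 and 12.67 in pcDNA cells and 11.94, 11.92, 11.66, 11.75, 11.97 and 12.77 in Rab25 cells in experiment 1, and 12.11, 12.32, 12.29, 12.28, 12.25 and 12.43 in pcDNA cells and 12.23, 12.27, 12.25, 12.29, 12.25 and 12.38 in Rab25 cells in experiment 2. Its FBS arrays were the highest of their line in both experiments. ESPL1 read 9.86, 10.03, 10.02, 9.78, 9.75 and 11.17 in pcDNA cells and 9.98, 10.18, 10.29, 10.09, 9.92 and 11.23 in Rab25 cells in experiment 1, and 10.22, 10.22, 10.29, 10.22, 10.25 and 10.30 in pcDNA cells and 10.24, 10.41, 10.20, 10.21, 10.22 and 10.16 in Rab25 cells in experiment 2. Without the experiment as a block, with array quality weights, or without the FBS array of experiment 1 of either line, 0 were called. Without the second starved pcDNA array of experiment 2, 5 were, and without the FBS array of experiment 2 of pcDNA or Rab25 cells, 15 and 29 were. By line the pooled fit called 0 members in pcDNA cells (limma, 11 at an unadjusted p under 0.05; 6.75% of all genes called). CDC20, 0.77 (SE 0.25, limma adjusted p = 0.0738), and CDCA8, 0.63 (SE 0.24, limma adjusted p = 0.126), had the lowest p. In Rab25 cells 0 were called as well (limma, 2 at an unadjusted p under 0.05; 7.72% of all genes called). CKS2, 0.59 (SE 0.19, limma adjusted p = 0.0689), and MAD2L1, a checkpoint protein that holds back CDC20, 0.52 (SE 0.24, limma adjusted p = 0.192), had the lowest p. The pooled difference between lines in the FBS response was called for 0 (limma, 0 at an unadjusted p under 0.05; 0.209%), the lowest p being those of CDCA8 and NCAPH.

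In the fits of all 24 arrays EGF, IGF and TGF beta gave no call among the members. These fits held no line by experiment term. The change of the line difference between experiments, called for 48 members by that term, was thus left in their spread. A small response could be missed for this reason. With EGF 0 of 49 were called over both lines (limma, 0 at an unadjusted p under 0.05; 0% of all genes called), with a median of -0.072 and a range from -0.23 for NEK2 to 0.19 for MELK. MELK, 0.19 (SE 0.14, limma adjusted p = 0.845), and NEK2, a kinase that splits centrosomes, -0.23 (SE 0.22, limma adjusted p = 0.922), had the lowest p. With IGF 0 were called (limma, 0 at an unadjusted p under 0.05; 2.71% of all genes), with a median of -0.097 and a range from -0.43 to 0.21. KIF14, -0.43 (SE 0.23, limma adjusted p = 0.391), and MELK, 0.21 (SE 0.14, limma adjusted p = 0.503), had the lowest p. With TGF beta 0 were called (limma, 0 at an unadjusted p under 0.05; 1.6% of all genes), with a median of 0.0040 and a range from -0.18 to 0.12. ECT2, -0.18 (SE 0.15, limma adjusted p = 0.799), and CDC25B, -0.16 (SE 0.15, limma adjusted p = 0.838), had the lowest p. MELK read 10.32, 10.45, 10.58, 10.62, 10.49 and 10.89 in pcDNA and 10.60, 10.66, 10.91, 11.14, 10.73 and 10.92 in Rab25 cells of experiment 1. Its IGF array was the highest of the Rab25 arrays there, but in experiment 2 it read 11.13, 11.26, 11.38, 11.25, 11.18 and 11.05 in pcDNA cells and 10.98, 10.89, 11.04, 10.98, 10.91 and 10.72 in Rab25 cells. The differences between lines in these responses were called for 0 members each (0% of all genes for EGF, IGF and TGF beta), as were the differences between experiments (0.0838%, 1.42% and 0.402% of all genes; limma, 0 members at an unadjusted p under 0.05 in each). Within each line 0 members were called (EGF 0% of all genes in pcDNA and 0.00838% in Rab25 cells, IGF 0% and 0.771%, TGF beta 0.276% and 0.494%; limma, 0 members at an unadjusted p under 0.05 in each). Within each experiment 0 members were called in the fit of all 24 arrays (EGF 0.184% of all genes in experiment 1 and 0.653% in experiment 2, IGF 9.97% and 2.34%, TGF beta 1.29% and 2.99%; limma, 0 members at an unadjusted p under 0.05 in each), with medians from -0.11 (IGF, experiment 1) to 0.076 (TGF beta, experiment 1). Fitted on experiment 1 alone IGF had 6 calls, 1 higher and 5 lower, and on experiment 2 alone 1 lower, where 1015 and 275 of the 11940 genes were called.

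Other lists of the same pathway are given beside the shares over all genes: 32.6% called and 15.5% higher for experiment 2 minus 1 in starved pcDNA cells, 29.6% and 13.2% higher for FBS in pcDNA cells of experiment 1, and 4.66% and 3.39% lower for the change of the line difference. Of 50 other G2/M and mitosis genes, 44 were higher in experiment 2 in starved pcDNA cells and 0 lower (median 1.00). With FBS in pcDNA cells of experiment 1, 39 rose and 1 fell (median 0.89). The line difference fell between experiments for 35 (median -0.54). Of the 38 G1/S and DNA replication genes 37 were higher in experiment 2 in starved pcDNA cells (median 1.16) and 36 rose with FBS in pcDNA cells of experiment 1 (median 0.98). Their line difference fell between experiments for 15 and rose for 1 (median -0.29). POLA2, a subunit of the DNA polymerase that primes replication, rose by 1.18 (SE 0.059, limma adjusted p = 4.16e-07) between the experiments in starved pcDNA cells, and GINS2, part of the replicative helicase, by 1.86 (SE 0.10, limma adjusted p = 1.2e-05) with FBS. The 18 regulators of these promoters were mixed: between the experiments in starved pcDNA cells 6 rose and 4 fell (median 0.088). MYBL2, the B-MYB activator of G2/M promoters, rose by 1.68 (SE 0.11, limma adjusted p = 9.52e-07) there and by 1.42 (SE 0.14, limma adjusted p = 0.000221) with FBS in experiment 1, and RBL1 (p107) by 1.47 (SE 0.092, limma adjusted p = 7.66e-07) between the experiments. E2F5, an E2F that represses in resting cells, fell, with a log2 difference of -1.48 (SE 0.14, limma adjusted p = 7.47e-06). CDKN1A (p21), an inhibitor of cyclin-dependent kinases, fell with FBS in pcDNA cells of experiment 1, -0.86 (SE 0.10, limma adjusted p = 0.000473), and CDKN1B (p27), another, fell with FBS in experiment 2, -0.73 (SE 0.11, limma adjusted p = 0.0152). In the change of the line difference MYBL1, -0.71 (SE 0.10, limma adjusted p = 0.00167), MYBL2, -0.47 (SE 0.11, limma adjusted p = 0.0321), and RBL1, -0.36 (SE 0.092, limma adjusted p = 0.0457), were the 3 regulators called, all lower.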

How the data were processed

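RNA of each sample was extracted with the RNeasy mini kit and hybridised to Affymetrix human high-throughput arrays, 1 array per sample, per the labels' protocols. The authors deposited normalized log2 values per probe set; the submitters' processing notes name MAS5 and RMA, with no version, role or order. Probe sets with 1 gene symbol in the platform annotation were kept, and each gene was read from the set of highest mean over 24 arrays, giving 11940 genes.

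Differences and their SE were fitted with limma 3.58.1 (its linear models with moderated variances; R 4.3.3), with Benjamini-Hochberg adjustment over all 11940 genes and a call at an adjusted p under 0.05. The planned fits had the 10 groups and experiment (13 residual degrees of freedom) and, for differences between experiments, treatment by experiment terms (9). Neither held a line by experiment term, so the change of the line difference between experiments stayed in their spread. Chosen after the data were seen were a fit that adds line by experiment terms (8) and a fit of the 20 combinations of line, treatment and experiment (4), in which single arrays are assumed to vary like the starved duplicates. Each of these fits was run on simulated arrays with known changes, for some of the comparisons. The other steps were not tested on simulated data. Replicate numbers follow the labelled experiments, so experiment is the pairing block; over the 45 pairs of groups, deviations between experiments correlated with a median r of 0.66 (0.092 to 0.86). Per comparison, up to 4 called members of largest rise and of largest fall are described with array values, or the 2 of lowest p where none was called. Alternatives were quantile normalization, centring, array weights, the median of probe sets, and the removal of the lowest 40% of genes, of single arrays, of both Rab25 FBS arrays or of an experiment. The number of arrays limits the precision. The members and lists were chosen with earlier results of these data known.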

Additional observations from a re-analysis of the deposited data

Results flagged for a closer look

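The change of the line difference (Rab25 minus pcDNA) between experiments was called by its own limma term for 48 of the 49 G2/M and mitosis genes, all lower in experiment 2. It was largest for TTK, -0.97, CENPE, -0.95, PLK1, -0.88, and CDC25C, -0.82, on the log2 scale.

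The FBS response also differed between experiments by its own term, for 28 members over both lines, led by BUB1, -1.66, DLGAP5, -1.54, CENPF, -1.51, and KIF20A, -1.49. Without either Rab25 FBS array, on which most fibroblast markers and CD74 were high, that count was 1. By line the difference was called for 49 members in pcDNA and 37 in Rab25 cells. The starved cells from which the response is measured were themselves higher in experiment 2.

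In starved Rab25 cells 1 array of 4 stood far above the other 3 for KIF14, at 10.64, the first array of experiment 2. This was 1 of 98 groups of 4 arrays examined. Each group joined both experiments, which differed in level, so the usual rate of about 1 chance flag in 20 groups need not hold.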

How the results depend on the processing

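Counts are of the 49 members called. Without the replicate block, that is without pairing arrays by experiment, 0 differed between the lines over the 5 conditions and 0 rose with FBS over both lines, instead of 4 and 3. Array quality weights gave 1 for the lines, 2 for the lines in starved cells and 0 for FBS. Centring arrays on their median gave 8 for FBS over both lines, 1 in pcDNA, 1 in Rab25, 18 for the lines in experiment 2, 5 for the line difference of the FBS response in experiment 1, 4 for FBS in Rab25 cells of experiment 2 and 23 for the FBS difference between experiments in Rab25 cells; quantile normalization gave 7 for that line difference. The median of probe sets gave 1 for the lines in starved cells and 6 for FBS in pcDNA cells of experiment 2. Without the lowest 40% of genes the counts were 5 for FBS, 6 for the line difference of the FBS response in experiment 1, 7 for FBS in Rab25 cells of experiment 2 and 24 for the lines in starved cells of experiment 2. Without both Rab25 FBS arrays they were 1 for the lines in starved cells, 2 for FBS in pcDNA and 1 for the FBS difference between experiments. They were 21 for FBS in experiment 1, then of pcDNA cells only, and without the 4 FBS arrays 8 for the lines. Experiment 1 alone gave 43 for the lines, 29 for the lines in starved cells, 6 for IGF, 49 for FBS, 48 in pcDNA and 40 in Rab25 cells; experiment 2 alone gave 34, 13, 1, 9, 3 and 2. The 8 starved arrays alone gave 3 for the change of the line difference between experiments. With the median of probe sets BUB1 reversed to -0.0039 for FBS in experiment 1, 0.024 for the lines in experiment 2, -0.029 for the experiments in starved Rab25 cells, -0.015 for FBS in pcDNA cells of experiment 1 and 0.025 for its difference between experiments, where FOXM1 reversed to 0.087; on experiment 2 alone ESPL1 reversed to -0.045 for FBS. Beyond probe set choice and the removal of arrays or genes, the cause was not tested. Leaving out single arrays gave 1 to 7 for the lines, 0 to 1 for the lines in starved cells, 20 to 41 for the lines in experiment 2, 20 to 34 and 8 to 14 for the lines in starved cells of experiments 1 and 2, 0 to 29 for FBS, 0 to 7 in pcDNA, 0 to 11 in Rab25, 9 to 40 in experiment 1, 0 to 1 in experiment 2, 0 to 10 and 2 to 5 in pcDNA and Rab25 cells of experiment 2, 1 to 33 for the FBS difference between experiments and 0 to 3 for its line difference in experiment 1. The change of the line difference between experiments gave 45 to 48. Of 3337 values of single members under the other settings 3110 kept direction and call, 220 lost the call and 7 reversed; with single arrays left out, 12689 of 13400 kept both and 0 reversed.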
